A study of Mus musculus with 60 samples.

Results

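The 10 genes described here are the astrocyte transport and gap junction genes Slc1a2, Slc1a3, Glul, Kcnj10, Aqp4, Gja1, Gjb6, Aldh1l1, Aldoc and S100b, listed by name and read from the 35976 gene symbols of a raw count table. They were followed over 60 hippocampus libraries of mice. All 10 passed the filter on low counts in every comparison. Wild-type mice (WT) and App NL-G-F mice (NLGF), which carry mutations of familial Alzheimer's disease in their own App gene and so make amyloid without an App transgene, were sampled at 3, 8 and 24 weeks of age. Each of the 6 groups of genotype and age held 10 samples, 5 labelled female and 5 labelled male. The libraries came from total RNA of fresh frozen hippocampus, depleted of ribosomal RNA. The labels do not say that each sample came from a separate animal, and the p-values then describe sample-to-sample spread, part of which could be technical.

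Astrocytes clear the glutamate that neurons release, chiefly through the transporters encoded by Slc1a2 (GLT-1) and Slc1a3 (GLAST), and convert it to glutamine with glutamine synthetase, the product of Glul. Kcnj10 encodes the inward rectifier potassium channel through which astrocytes buffer extracellular potassium, and Aqp4 the water channel of their endfeet around vessels. Gja1 and Gjb6 encode the connexins that join astrocytes into networks. Aldh1l1 encodes a folate enzyme and Aldoc a glycolytic aldolase, both common astrocyte markers, and S100b a calcium-binding protein that some oligodendrocyte lineage cells make as well.

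Levels are CPM, counts scaled to an equal library total after TMM adjustment, with a single factor for each library. The factor lessens RNA composition differences between libraries and does not correct for the mix of cell types. Fold changes, standard errors (SE) and adjusted p-values come from the quasi-likelihood test of edgeR over all genes tested, and a gene is called at an adjusted p under 0.05. Totals lay between 17.8 and 73.4 M counts with a median of 26.1 M. Of the NLGF libraries of week 3, 7 were deeper, at 54.0 to 73.4 M, while the other 53 libraries held 17.8 to 35.2 M and no WT library was of the deeper kind. They stood apart in more than depth: Bc1, a small noncoding RNA, was at 1738 to 5727 CPM in them and at most 59.5 CPM in the other 53. The kind of library and the genotype therefore cannot be told apart for those 7, and results that rest on them are given with and without them. In 1 of them, NLGF male 2, the sex label conflicts with the counts. The 16 astrocyte identity markers, none at 0 in any group, summed to 1390 to 2318 CPM over the 60 libraries. In bulk tissue, fewer cells of a type and less RNA per cell cannot be told apart.

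The bases before the start sites of 5 members called with age in NLGF mice are shown, to set these members side by side. Aldh1l1, which was called in WT and between genotypes, is not shown because its window overlaps an annotated exon. Each run is the 250 bases before a RefSeq start in GRCm38.p6, read 5′ to 3′ on the strand of the gene. Capitals mark a match to 1 of 4 motifs searched on both strands, and they occur in Slc1a3 (STAT motif, 96 bases before the start) and Gja1 (AP-1 motif, 19 bases before the start).

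Slc1a3 (chr15:8710808-8711057, minus strand): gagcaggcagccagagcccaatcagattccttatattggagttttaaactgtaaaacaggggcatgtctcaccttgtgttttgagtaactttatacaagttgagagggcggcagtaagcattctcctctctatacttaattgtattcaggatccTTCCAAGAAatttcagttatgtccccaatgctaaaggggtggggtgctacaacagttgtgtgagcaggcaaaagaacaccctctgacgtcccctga

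Kcnj10 (chr1:172340960-172341209, plus strand): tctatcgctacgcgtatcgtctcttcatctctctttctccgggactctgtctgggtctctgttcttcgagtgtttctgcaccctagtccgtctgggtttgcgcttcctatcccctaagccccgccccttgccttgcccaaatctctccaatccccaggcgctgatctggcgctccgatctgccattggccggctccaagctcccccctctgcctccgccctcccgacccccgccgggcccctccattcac

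Gja1 (chr10:56377050-56377299, plus strand): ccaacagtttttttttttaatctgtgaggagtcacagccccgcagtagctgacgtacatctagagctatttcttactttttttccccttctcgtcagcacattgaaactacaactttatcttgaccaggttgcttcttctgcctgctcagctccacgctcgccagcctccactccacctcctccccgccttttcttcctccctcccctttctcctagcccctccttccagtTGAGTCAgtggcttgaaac

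Gjb6 (chr14:57133612-57133861, minus strand): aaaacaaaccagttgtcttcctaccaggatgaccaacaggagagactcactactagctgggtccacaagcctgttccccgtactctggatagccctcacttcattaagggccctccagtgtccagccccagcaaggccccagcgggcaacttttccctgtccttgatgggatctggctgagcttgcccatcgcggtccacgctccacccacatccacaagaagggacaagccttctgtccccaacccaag

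S100b (chr10:76253586-76253835, plus strand): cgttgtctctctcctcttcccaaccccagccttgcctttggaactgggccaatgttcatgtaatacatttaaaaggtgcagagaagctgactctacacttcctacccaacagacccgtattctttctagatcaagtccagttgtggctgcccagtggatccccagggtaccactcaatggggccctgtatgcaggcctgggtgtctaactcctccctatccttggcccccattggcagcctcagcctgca

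Of the 10 members, 9 had such a window that was read. The STAT motif TTCNNNGAA occurred in 2 of these, Slc1a3 and Aldoc, and in 7.02% of the 32851 windows of all genes. The matches in Aldoc lay only in a window whose start site is 1230 bases inside the gene. Its other window, with a start site 105 bases inside the gene, held none. Members are counted here by gene, and the percentages by window. The AP-1 motif TGANTCA occurred in Gja1 alone, and in 6.75% of all windows. The SOX motif ACAATG, at 10.7% of all windows, and the palindromic NFI motif, at 0.0365%, matched in none of the 9. The windows of Kcnj10, Gjb6 and S100b held none of these letters. GC content of the 5 windows shown ran from 44.8% in Slc1a3 to 62% in Kcnj10.

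Levels were compared between genes per kilobase of annotated exon (GENCODE vM21, mm10). Glul and Slc1a2 stood highest over the 60 libraries, at 471 ± 52.9 and 450 ± 42.8 CPM per kb (SD, n = 60), closer to each other than their spread. Aldoc followed at 190 ± 21.4 and Slc1a3 at 61.3 ± 6.38 CPM per kb. The next pairs did not differ beyond their spread: S100b at 42.4 ± 5.28 and Kcnj10 at 39.3 ± 5.30, then Gja1 at 24.2 ± 3.24 and Aqp4 at 22.4 ± 4.38, then Gjb6 at 13.1 ± 2.05 and Aldh1l1 at 12.1 ± 2.10 CPM per kb. In mm10 the genes lie on separate loci, Slc1a2 at chr2:102658659-102790784, Slc1a3 at chr15:8634124-8710764, Glul at chr1:153899944-153909723, Kcnj10 at chr1:172341210-172374085. The connexin genes are Gja1 at chr10:56377330-56402513 and Gjb6 at chr14:57123303-57133611, and the others Aldh1l1 at chr6:90486427-90600203, Aldoc at chr11:78322968-78327781 and S100b at chr10:76253853-76261159. Slc1a2, Glul and Aldh1l1 overlap other annotated genes in their exons (Gm13872; Teddm2 and Mir8114; Gm45901 and Gm15756), and the strand setting of the counting is not given in the sources used here, so a few of their reads could belong to those genes.

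**Figure D1:**
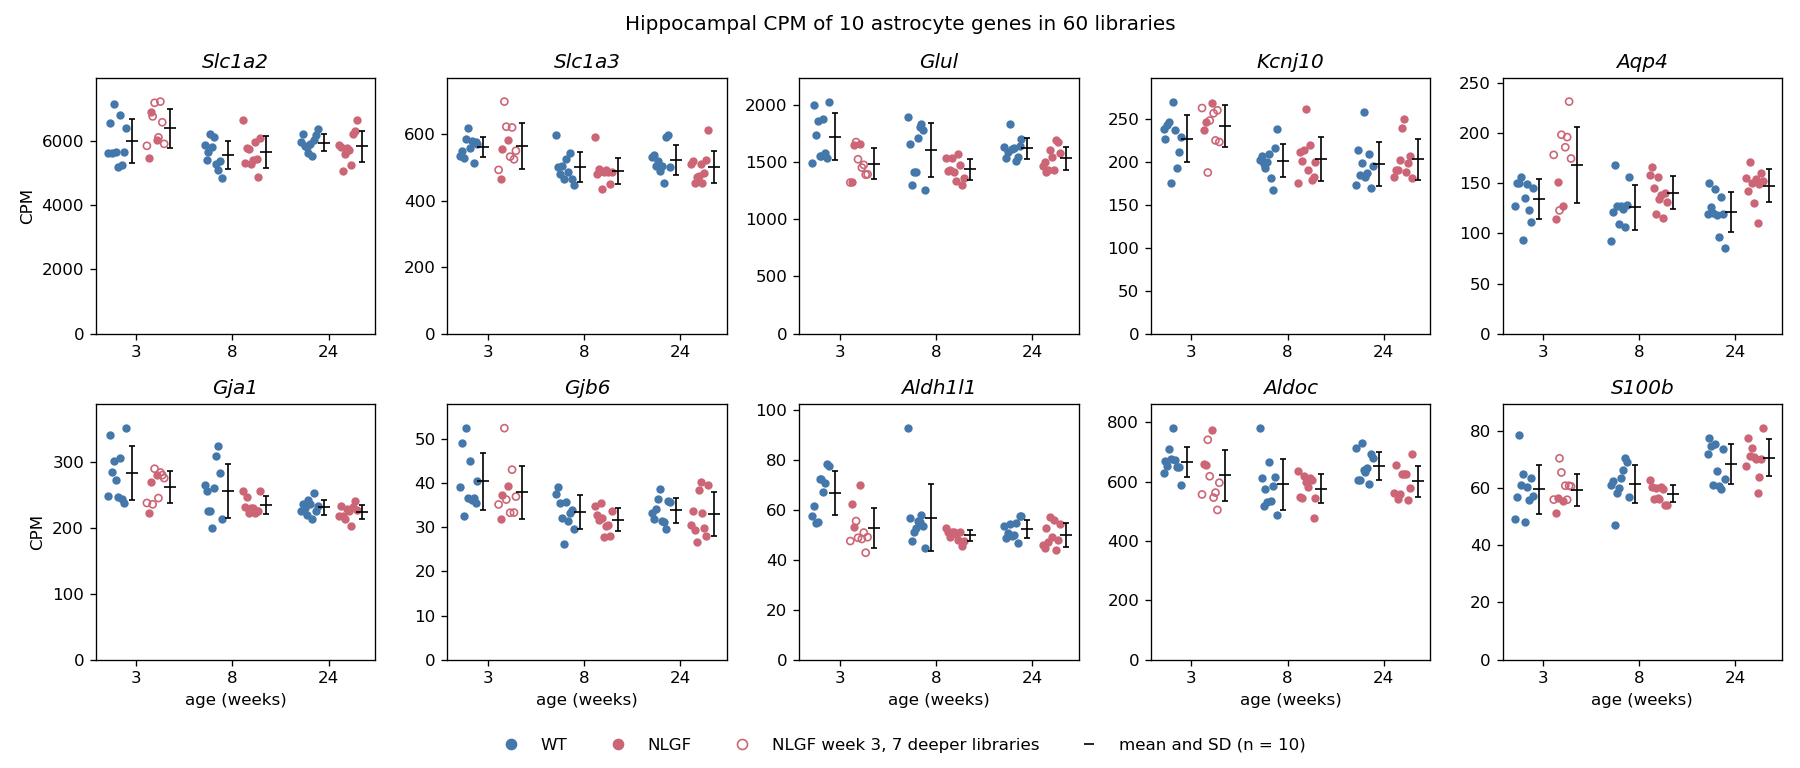
CPM of each of the 10 genes (y axis, from 0) in every library by age in weeks (x axis), WT in blue and NLGF in red, with the 7 deeper NLGF libraries of week 3 as open circles and the mean and SD of each group of 10 as black marks. WT and NLGF points overlap for every gene at every age, and S100b is higher at week 24 than at week 8 in NLGF.

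The genotype comparison asks whether these genes differ in the App knock-in at each age. At week 3, 1 of the 10 members was called, Aldh1l1, lower in NLGF, where 3.78% of all genes tested were called (2.11% lower). At week 8 none of the 10 was called, as was none of all 16494 genes tested by edgeR (0%; 1292 genes, 7.83%, had an unadjusted p under 0.05, and DESeq2 called 1). At week 24 none of the 10 was called either, while 0.878% of all genes were. Over the 10 members the median log2 fold change was -0.04, -0.06 and -0.04 at weeks 3, 8 and 24, against 0.01, -0.01 and 0.00 over all genes.

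Of the glutamate transporters, neither was called between genotypes at any age. Slc1a2 stood at 6003 ± 688 CPM in WT and 6412 ± 611 in NLGF at week 3 (SD, n = 10 each), at 5578 ± 444 and 5672 ± 501 at week 8, and at 5954 ± 263 and 5842 ± 476 at week 24. Its log2 fold changes were 0.10 ± 0.07 (SE), 0.02 ± 0.06 and -0.03 ± 0.05, with 95% intervals of -0.05 to 0.25, -0.09 to 0.14 and -0.12 to 0.07. Slc1a3, the second glutamate transporter, stood at 562 ± 31.3 and 565 ± 68.6 CPM at week 3, 502 ± 44.6 and 489 ± 40.5 at week 8, and 523 ± 44.3 and 501 ± 47.5 at week 24. The genotype groups overlapped for both transporters at each age.

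Glul, which makes glutamine from the glutamate taken up, was lower on average in NLGF at all 3 ages without a call. At week 3 WT libraries ran from 1494 to 2028 CPM with a median of 1658, and NLGF libraries from 1320 to 1674 with a median of 1463. The groups overlapped, though 6 of 10 NLGF libraries lay below every WT library. The log2 fold change was -0.21 ± 0.07 (SE), with an adjusted p of 0.0985. It was called with DESeq2 (adjusted p = 0.0463), with all 60 samples in 1 fit (0.0252) and without NLGF male 1 (0.0475). Without the 7 deeper libraries it was -0.15 ± 0.11, with an adjusted p of 0.602. The log2 fold change was -0.16 ± 0.07 at week 8 and -0.08 ± 0.05 at week 24, with adjusted p-values of 0.633 and 0.623.

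Kcnj10, the potassium channel, differed little between genotypes, with log2 fold changes of 0.09 ± 0.07 (SE), 0.01 ± 0.07 and 0.04 ± 0.07 at weeks 3, 8 and 24. Aqp4, the water channel, was higher on average in NLGF at each age without a call. At week 3 WT libraries ran from 93.4 to 157 CPM with a median of 140, and NLGF libraries from 114 to 232 with a median of 177. The ranges overlapped, with 6 of 10 NLGF libraries above every WT library. The log2 fold change was 0.32 ± 0.12, with an adjusted p of 0.122. It was called with all 60 samples in 1 fit (adjusted p = 0.0376), with voom and quality weights (0.0269) and without NLGF male 1 (0.0475). The 7 deeper libraries averaged 184 ± 32.8 CPM and the other 3 NLGF libraries 131 ± 18.5, against 134 ± 20.3 in WT. Without the 7 deeper libraries the log2 fold change was -0.04 ± 0.14, on the other side of 0.

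At week 24, where no library stood apart in depth, Aqp4 ran from 85.5 to 150 CPM in WT with a median of 120 and from 111 to 171 in NLGF with a median of 151. Again 6 of 10 NLGF libraries lay above every WT library, and the ranges overlapped. The log2 fold change was 0.29 ± 0.08 (SE), the largest of the 10 members at that age, with an unadjusted p of 0.00288 and an adjusted p of 0.181. Its adjusted p lay between 0.0661 and 0.336 with each library left out in turn and between 0.0728 and 0.932 over the other alternatives. The reactive astrocyte markers moved at the same age, with 5 of 9 tested called higher, among them Gfap at 553 CPM in NLGF against 306 in WT (log2 fold change 0.86 ± 0.11, adjusted p = 5.67e-05). The microglia markers were called higher in 5 of 7. Of all genes 0.878% were called at this age, in either direction. The part of these markers in the Aqp4 value was not tested.

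The connexins Gja1 and Gjb6 were lower on average in NLGF at each age, and neither was called. Gja1, the main connexin of astrocytes, stood at 284 ± 41.3 CPM in WT and 262 ± 24.1 in NLGF at week 3 (SD, n = 10 each), at 256 ± 40.8 and 235 ± 13.4 at week 8, and at 231 ± 11.3 and 224 (range 203 to 240) at week 24. Gjb6 stood at 40.4 ± 6.51 and 37.9 ± 6.07, 33.5 ± 3.88 and 31.7 ± 2.63, and 33.8 ± 2.85 and 33.0 ± 4.98 CPM. Their log2 fold changes lay between -0.12 and -0.04, with SEs of 0.04 to 0.10, and the genotype groups overlapped throughout.

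Aldh1l1, the folate enzyme, was the called member at week 3. WT libraries ran from 54.8 to 78.2 CPM with a median of 69.0, and NLGF libraries from 42.9 to 69.9 with a median of 50.02. The ranges overlapped, and 7 of 10 NLGF libraries lay below every WT library. The log2 fold change was -0.33 ± 0.08 (SE), with an adjusted p of 0.0327. The 7 deeper libraries averaged 49.0 ± 3.81 CPM and the other 3 NLGF libraries 61.8 ± 8.34, against 66.8 ± 8.95 in WT. Without the 7 the log2 fold change was -0.07 ± 0.09, with an adjusted p of 0.803, and no gene of 17187 was called at all by edgeR. The call was also lost in 10 of 20 fits with 1 library left out: each of the 7 deeper ones, WT females 2 and 5, and WT male 5. It was lost with the replicate block too (-0.34 ± 0.09, adjusted p = 0.0673), and in females (0.348) and males (0.163) alone. At weeks 8 and 24 the log2 fold changes were -0.19 ± 0.09 and -0.07 ± 0.05, with adjusted p-values of 0.633 and 0.750.

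Aldoc, the glycolytic aldolase, showed the same split by kind of library at week 3. It averaged 590 ± 76.1 CPM in the deeper libraries, 697 ± 67.0 in the other 3 and 668 ± 50.8 in WT. Its log2 fold change was -0.10 ± 0.07 with all libraries and 0.07 ± 0.08 without the deeper 7, and neither was called. At week 24 it was -0.12 ± 0.05, with an adjusted p of 0.4995. S100b was not called at any age, with log2 fold changes of near 0, -0.08 ± 0.06 and 0.05 ± 0.06.

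**Figure D2:**
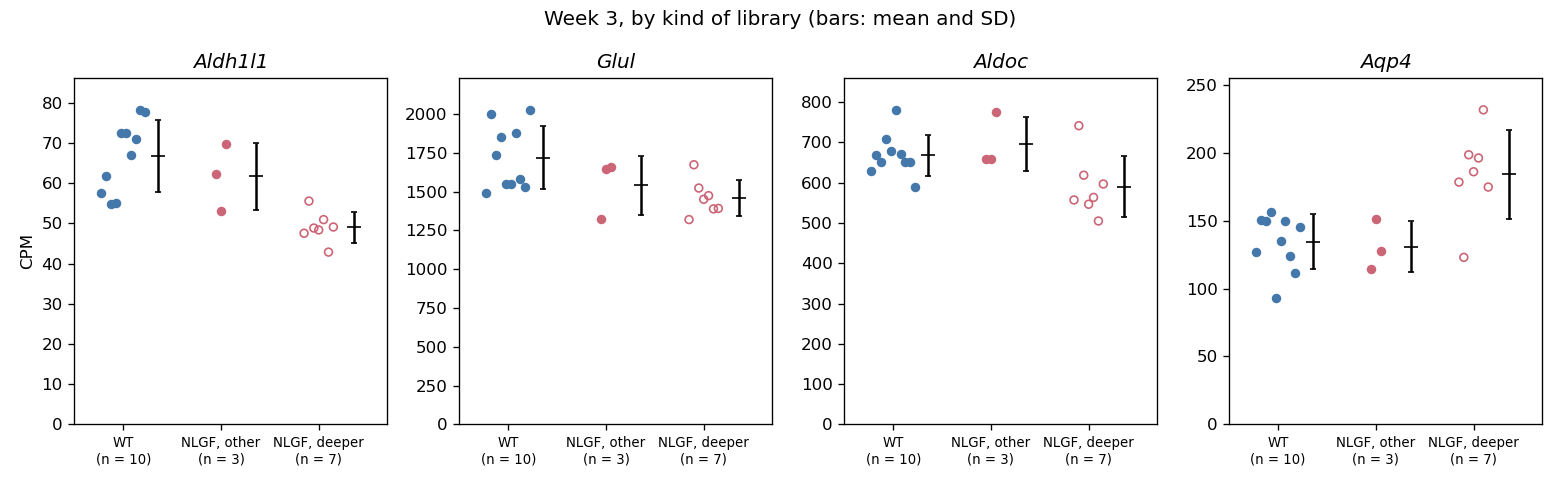
CPM (y axis, from 0) of Aldh1l1, Glul, Aldoc and Aqp4 at week 3 in WT (n = 10), in the 3 other NLGF libraries and in the 7 deeper NLGF libraries, with mean and SD beside the points. The deeper libraries lie lower for Aldh1l1 and higher for Aqp4, while the 3 others lie within the WT range for Aqp4.

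The authors' deposited table of selected genes lists 3 of the members at week 3, none at week 8 and none at week 24. In the authors' deposited table these are Aldh1l1 (log2 fold change -0.25, adjusted p 0.00153), Glul (-0.17, 0.0192) and Aqp4 (0.20, 0.0210). The authors' deposited table holds 2628 genes at week 3, 4 at week 8 and 156 at week 24, of which 2387, 2 and 149 have an adjusted p under 0.05, since the list runs up to 0.0600. It holds selected genes only, so the share of all genes tested cannot be read from it. Coming from the same series, it is not independent of the fits above. In those fits no member was called at week 3 without the 7 deeper libraries.

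**Figure D3:**
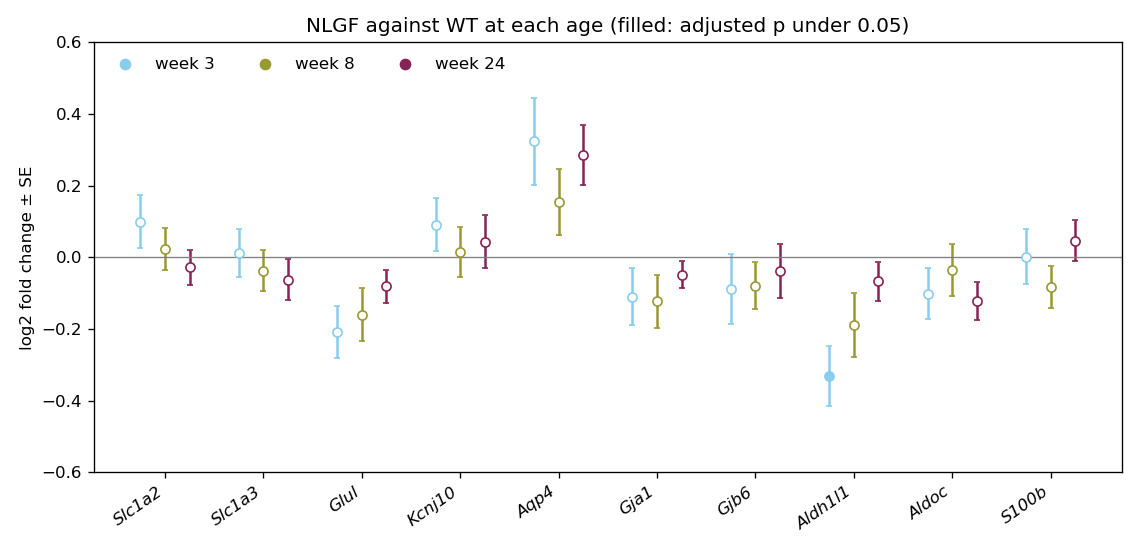
Log2 fold change of NLGF against WT with its SE (y axis) for each of the 10 genes (x axis) at weeks 3, 8 and 24, with filled points for an adjusted p under 0.05. Aldh1l1 at week 3 is the filled point, and Aqp4 lies above 0 at all 3 ages.

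Whether the genotype effect itself changed with age was tested directly, and no member was called. The background was 0.18% of genes for week 3 to 8, 0.31% for week 8 to 24 and 1.15% for week 3 to 24. The smallest adjusted p of a member was 0.275, for Aldh1l1 from week 3 to week 24, whose later effect minus the earlier was 0.27 ± 0.11 on the log2 scale (95% interval 0.05 to 0.49). For the other 9 genes these differences from week 3 to week 24 lay between -0.12 and 0.13. Over the alternative fits the Aldh1l1 difference lay between -0.003 and 0.40. Without the deeper NLGF libraries of week 3, the Aldh1l1 genotype effect was -0.07 at week 3, against -0.07 at week 24. The interval above, which leaves out 0, therefore holds only for the fit with all libraries.

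Age was compared within each genotype. In WT, 1 member was called from week 3 to week 8, Gjb6, where 7.14% of all genes were called and 4.51% lower. None was called from week 8 to week 24 (0.279% of all genes), and 4 were called lower from week 3 to week 24, where 21.9% of genes were called and 11.3% were called lower. In NLGF, 4 were called lower from week 3 to week 8, where 10.4% of genes were called and 5.51% lower. From week 8 to week 24 S100b was called higher, where 1.9% of genes were called and 1.36% higher. From week 3 to week 24, 3 members were called lower and 1 higher, where 25.7% of genes were called, 13.3% lower and 12.3% higher. The members' median log2 change from week 3 to week 24 was -0.12 in WT and -0.16 in NLGF, against 0.01 over all genes in each. Groups of different ages overlapped for every member. From week 3 to week 24, 1 member was called in females alone and 1 in males alone, in WT as in NLGF. The calls that held with 1 library left out were therefore mostly lost in each sex alone, with 5 samples a group.

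Of the uptake genes, Slc1a3 fell with age in NLGF, from 466 to 698 CPM at week 3 (median 553) to 436 to 591 at week 8 (median 487) and 453 to 614 at week 24 (median 497). The ranges overlapped at all ages. The log2 change was -0.21 ± 0.06 (SE) from week 3 to week 8 and -0.18 ± 0.06 from week 3 to week 24, with adjusted p-values of 0.0327 and 0.0448. With the 7 deeper libraries left out these were -0.14 ± 0.08 and -0.11 ± 0.09, and neither was called. On unadjusted library totals both calls were lost (0.0647 and 0.130), as they were with the replicate block (0.0571 and 0.0684). In females alone the week 8 call was lost too. The week 8 call was also lost without NLGF week 3 females 4 or 5 or male 3, or week 8 female 2 or male 4, and the week 24 call in 12 of 30 such fits (NLGF week 24 females 1, 3, 4 and 5 and males 1 to 4, and week 3 females 4 and 5 and males 1 and 3). In WT the changes were -0.16 ± 0.06 and -0.10 ± 0.06, with adjusted p-values of 0.0684 and 0.190.

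Slc1a2 was not called between ages in either genotype. Its largest log2 change was -0.18 ± 0.06 from week 3 to week 8 in NLGF, with an adjusted p of 0.0541, which DESeq2 (0.0247), the fit without a sex term (0.0472) and the 1 CPM filter (0.0482) called. It was also called in 10 of 30 fits with 1 library left out (NLGF week 3 females 1 and 2 and males 1 and 5, week 8 female 1 and male 2, and week 24 females 3 and 5 and males 2 and 5). From week 3 to week 24 in NLGF it was -0.14 ± 0.06 (adjusted p = 0.101), called without week 3 female 2. Glul was not called between any ages, with log2 changes of -0.10 to 0.09 over the 6 comparisons.

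Kcnj10 was lower at the later ages in both genotypes. In NLGF it ran from 188 to 269 CPM at week 3 (median 247), from 175 to 262 at week 8 (median 201) and from 181 to 250 at week 24 (median 195). Most libraries of week 3 lay above the medians of the later ages, and the ranges overlapped. The log2 change was -0.25 ± 0.07 (SE) both to week 8 and to week 24, with adjusted p-values of 0.0221 and 0.00938. Both calls held in 30 of 30 fits with 1 library left out, and without the 7 deeper libraries the changes were -0.30 ± 0.10 (adjusted p = 0.0524) and -0.30 ± 0.10 (0.0305). In females alone the call to week 8 was lost.

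In WT, Kcnj10 ran from 176 to 271 CPM at week 3 (median 233) and from 170 to 258 at week 24 (median 191). The log2 change was -0.20 ± 0.08, with an adjusted p of 0.0489. This call was lost in 14 of 30 fits with 1 library left out (WT week 24 females 1, 3 and 4 and males 1, 2, 4 and 5, and week 3 females 1 to 4 and males 1, 2 and 5), with RLE scaling (0.0534), without the low-count filter (0.0864), with the replicate block (0.0826), and in females (0.535) and males (0.0701) alone. Aqp4 was not called between ages, with log2 changes of -0.26 ± 0.10 from week 3 to week 8 in NLGF (adjusted p = 0.106) and -0.15 ± 0.10 from week 3 to week 24 in WT. The former became 0.11 without the 7 deeper libraries, and was called in 3 fits with NLGF week 3 female 2, female 4 or male 1 left out and in males alone (0.0416).

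Gja1 fell from week 3 to week 24 in both genotypes. In WT it ran from 237 to 352 CPM at week 3 (median 279) and from 213 to 253 at week 24 (median 231). At week 24, 8 of 10 libraries lay below every week 3 library. The log2 change was -0.29 ± 0.08 (SE), with an adjusted p of 0.00874. In NLGF it ran from 223 to 290 CPM at week 3 (median 272) and from 203 to 240 at week 24 (median 227), a log2 change of -0.23 ± 0.05 with an adjusted p of 0.000527. Both calls held in 30 of 30 fits with 1 library left out, and the NLGF change was -0.21 ± 0.07 (adjusted p = 0.0195) without the 7 deeper libraries. Each sex alone called 1 of the 10 members from week 3 to week 24, in WT as in NLGF. The NLGF change from week 3 to week 8, -0.16 ± 0.05 (adjusted p = 0.0244), was not called without the 7 (-0.14 ± 0.07, 0.161) or without week 3 female 5, male 3 or male 4, on unadjusted library totals (0.0781) or in females alone (0.801).

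Gjb6, the second connexin, fell in WT from 32.4 to 52.6 CPM at week 3 (median 37.9) to 26.1 to 39.2 at week 8 (median 33.7) and 29.6 to 38.7 at week 24 (median 33.7). The ranges of the later ages lay within or just below the lower part of that of week 3. The log2 changes from week 3 were -0.27 ± 0.08 and -0.26 ± 0.08, with adjusted p-values of 0.0262 and 0.0172. The call at week 8 was lost in 5 of 30 fits (WT week 3 females 2 and 4 and male 1, and week 8 female 5 and male 5) and without the low-count filter (0.0506), with the replicate block (0.05004), and in females (0.235) and males (0.0909) alone, while that at week 24 held in 30 of 30. In NLGF the change was -0.26 ± 0.08 from week 3 to week 8, with an adjusted p of 0.0410, and -0.20 ± 0.08 to week 24, with 0.0735, the latter called in 4 of 30 fits with 1 library left out (week 24 female 5, male 1 or male 5, or week 3 female 2). Leaving out the 7 deeper libraries, the former was -0.19 ± 0.11 and not called, nor was it on unadjusted library totals (0.0645), with the replicate block (0.0549), or in 9 of 30 fits with 1 library left out (week 3 females 4 and 5 and male 3, and week 8 females 2 and 3 and males 1 to 4). In females alone the NLGF change to week 8 was not called either.

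The 10 oligodendrocyte markers moved in the same comparisons. In WT 9 of 10 were called lower from week 3 to week 24, with a median log2 change of -1.58, and in NLGF 8 of 10, with a median of -1.26. Over all genes 11.3% were called lower in WT and 13.3% in NLGF. Their summed level had a median of 9683 CPM in WT at week 3 (range 6965 to 17692) and 4413 at week 24 (range 2837 to 5016), and none was at 0 in any group. Other marker sums moved as well in WT from week 3 to week 24. Medians fell from 350 to 119 CPM for meningeal fibroblasts, from 280 to 93.0 for blood and from 473 to 292 for oligodendrocyte precursors. For neurons and microglia they rose, from 6040 to 6372 and from 278 to 295. The astrocyte identity sum had medians of 1784 and 1661 in WT, and of 1719 and 1855 in NLGF. Gfap, also counted as a reactive marker, is part of this sum. Its mean at weeks 3 and 24 was 385 and 306 CPM in WT, and 351 and 553 in NLGF. The part of any cell type in the changes of the members was not tested.

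Aldh1l1 fell in WT from week 3 to week 24, from 54.8 to 78.2 CPM (median 69.0) to 46.8 to 57.5 (median 52.2). At week 24, 7 of 10 libraries lay below every week 3 library. The log2 change was -0.35 ± 0.09 (SE), with an adjusted p of 0.00607, and the call held in 30 of 30 fits with 1 library left out. In NLGF the change was -0.08 ± 0.07 and not called with all libraries. Without the 7 deeper libraries it was -0.31, with an adjusted p of 0.00479. From week 3 to week 8 the change in WT was -0.23 ± 0.09 (adjusted p = 0.138), and it was called without WT week 8 female 1, whose 93.0 CPM stood apart from the other libraries of its group. In NLGF it was -0.09 ± 0.07, and -0.31 with an adjusted p of 0.00971 without the 7.

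Aldoc was not called between ages. In WT its log2 change was -0.18 ± 0.07 from week 3 to week 8 (adjusted p = 0.106) and 0.15 ± 0.07 from week 8 to week 24 (0.385). The former was called on unadjusted library totals (0.0321) and without WT week 8 female 1 (0.00804). In NLGF the change from week 3 to week 8 was -0.11 ± 0.07, and -0.28 with an adjusted p of 0.0264 without the 7 deeper libraries.

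S100b was the member that rose. In NLGF it ran from 54.0 to 62.7 CPM at week 8 (median 58.1) and from 58.4 to 81.1 at week 24 (median 70.6). At week 24, 9 of 10 libraries lay above every week 8 library. The log2 change was 0.28 ± 0.05 (SE), with an adjusted p of 0.00143, and from week 3 to week 24 it was 0.25 ± 0.05, with an adjusted p of 0.000821. Both calls held in 30 of 30 fits with 1 library left out, and without the 7 deeper libraries the changes were 0.28 ± 0.05 (0.000855) and 0.38 ± 0.07 (0.000516). In females alone and in males alone the call from week 8 to week 24 was lost. From week 3 to week 24, each sex alone called 1 of the 10 members.

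In WT, S100b ran from 47.9 to 78.5 CPM at week 3 (median 58.8), from 47.2 to 70.4 at week 8 (median 61.8) and from 59.6 to 77.4 at week 24 (median 68.8). The change from week 3 to week 24 was 0.20 ± 0.08, with an adjusted p of 0.0637. DESeq2 called it (0.0487), as did fits without WT week 24 female 4 or week 3 female 3. The change with age did not differ by a call between genotypes, with a later genotype effect of 0.13 ± 0.09 over that of week 8 (95% interval -0.05 to 0.31).

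**Figure D4:**
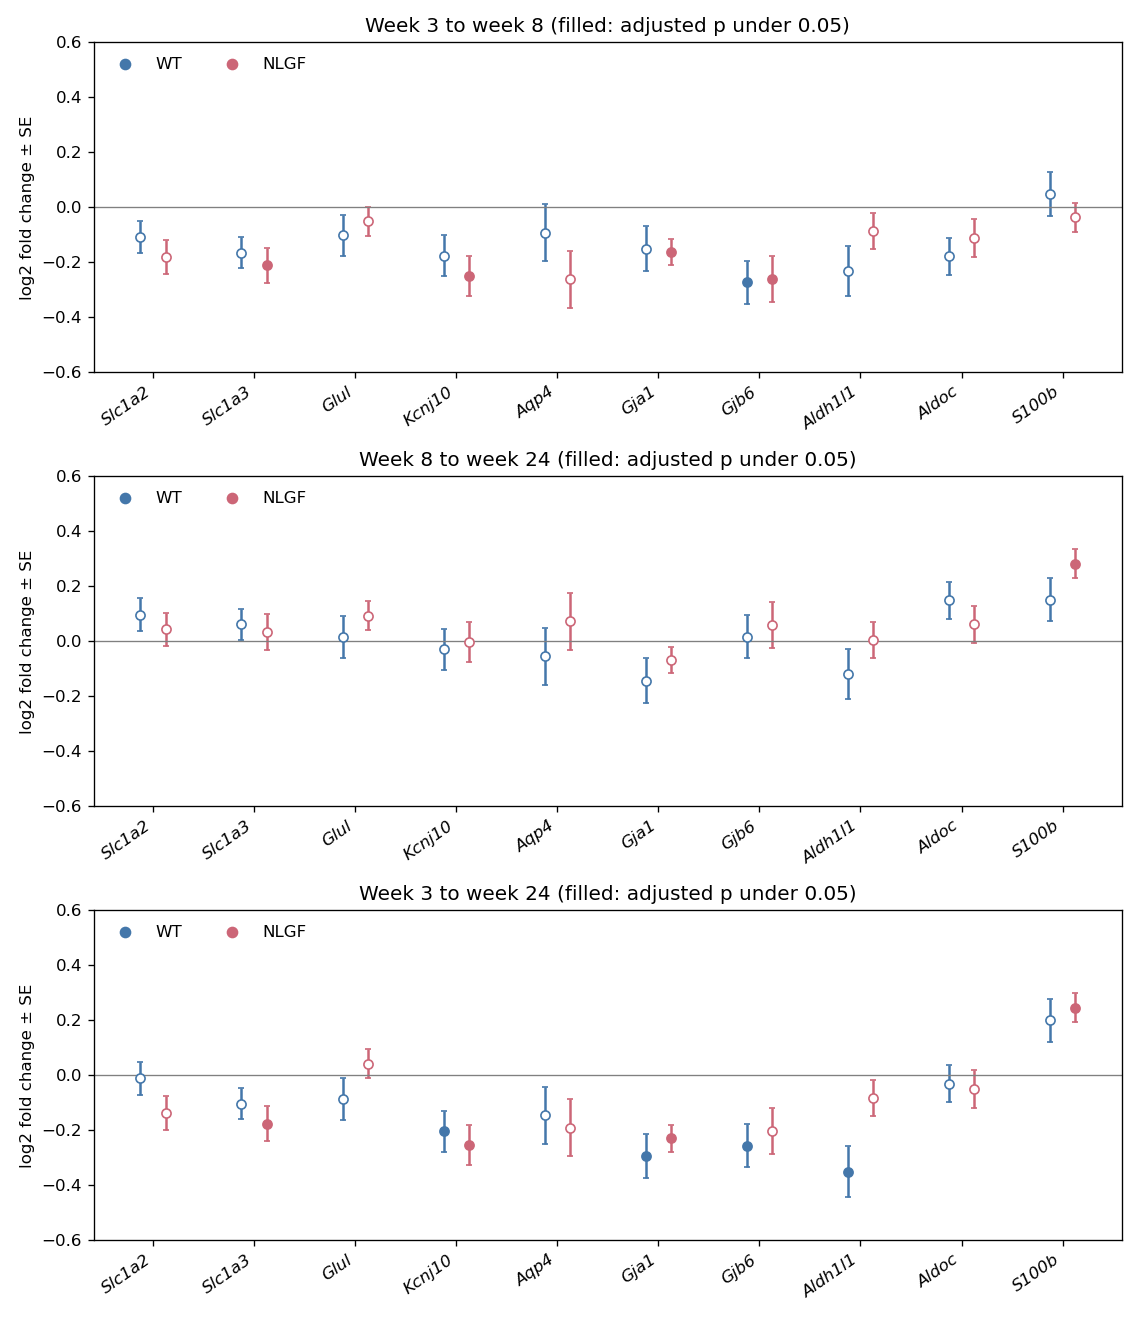
Log2 fold change with its SE (y axis) of each of the 10 genes (x axis) from week 3 to 8, week 8 to 24 and week 3 to 24, WT in blue and NLGF in red, with filled points for an adjusted p under 0.05. Filled points lie below 0 except those of S100b, and most lie in comparisons with week 3.

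The relative use of the 2 transporters and of the 2 connexins was compared as a ratio of counts within each library, which does not depend on library scaling. The count of Slc1a2 over that of Slc1a3 averaged 10.7 ± 1.09 (SD, n = 10) in WT at week 3 and 11.4 ± 0.898 in NLGF, 11.2 ± 1.02 and 11.6 ± 0.553 at week 8, and 11.4 ± 0.755 and 11.7 ± 0.611 at week 24. Gjb6 over Gja1 averaged between 0.133 ± 0.0191 (WT, week 8) and 0.147 ± 0.0222 (NLGF, week 24). In 12 permutation tests, 2-sided, of the log2 ratios between genotypes at each age and between ages in WT, the smallest p was 0.0851 and adjusted values lay between 0.487 and 0.988. The largest difference of the Slc1a2 to Slc1a3 ratio was 0.10 on the log2 scale, and that of the Gjb6 to Gja1 ratio 0.15.

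Beyond the members, a list of 62 further genes of the same processes was read (15 of uptake and the glutamine cycle, 9 of potassium and bicarbonate transport, 9 of water channels and their anchors, 9 connexins and pannexins, 15 of metabolism, 5 of the S100 family). All 62 were tested. Between genotypes, 1 was called at week 3, where 3.78% of all genes were: Ldhb, a lactate dehydrogenase subunit, at a log2 fold change of -0.28 ± 0.06 (SE) with an adjusted p of 0.0266. With the 7 deeper libraries left out, Ldhb was at -0.15 ± 0.10 and none of the 62 was called. The count of 1 was 3 with DESeq2, 4 with all 60 samples in 1 fit, 6 with voom and quality weights, and 0 with the replicate block, in females alone and in males alone. By edgeR none of the 62 was called at week 8 or week 24, while at week 24 DESeq2, unadjusted library totals, and voom with quality weights each called 1 higher.

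With age in WT, 9 of the 62 were called lower from week 3 to week 8 and none higher, where 4.51% of all genes were called lower, among them Slc16a1 (-0.42 ± 0.07), a lactate transporter, S100a16 (-0.33 ± 0.06) and Dag1 (-0.22 ± 0.05), which encodes dystroglycan. None was called from week 8 to week 24. From week 3 to week 24, 16 were called lower and 2 higher, where 21.9% of all genes were called and 11.3% lower. Slc16a1 (-0.47 ± 0.07), Dag1 (-0.38 ± 0.05) and S100a16 (-0.38 ± 0.06) were among the former, and Dmd (0.38 ± 0.08), which encodes dystrophin, and Pdk4 (0.33 ± 0.08), a kinase that restrains pyruvate oxidation, were the latter. Of the 9 connexins and pannexins, 7 were called lower, with a median log2 change of -0.58 for the 9 against 0.01 over all genes.

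In NLGF, 11 of the 62 were called lower from week 3 to week 8 and none higher, where 5.51% of all genes were called lower, led by Dag1 (-0.35 ± 0.04), Slc4a4 (-0.23 ± 0.05), the sodium bicarbonate cotransporter, Hepacam (-0.18 ± 0.05), an astrocyte adhesion protein, and Slc16a1 (-0.26 ± 0.07). Without the 7 deeper libraries 5 were called lower and 2 higher, where 1367 of all 18431 genes tested were called lower and 1326 higher. Dag1 (-0.35) and Slc4a4 (-0.30) were called there, Hepacam (-0.18) and Slc16a1 (-0.04) were not. From week 8 to week 24, Kcnj2, another inward rectifier, was called higher (0.47 ± 0.12) and Slc38a5, a glutamine transporter, lower (-0.67 ± 0.17). Of all genes 1.9% were called there, and 1.36% higher.

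From week 3 to week 24 in NLGF, 13 were called lower and 7 higher, and 15 and 5 without the deeper libraries. Over all genes 13.3% were called lower and 12.3% higher, so the 7 higher ones are no larger a share than that of all genes. Without the deeper libraries 2638 of all 18431 genes tested were called lower and 2529 higher. Dag1 (-0.49 ± 0.04), Slc38a5 (-1.22 ± 0.17), Panx1 (-0.37 ± 0.05), a pannexin, and Gja4 (-0.67 ± 0.11), a connexin of vessels, led the lower ones and were called without the deeper libraries too. Of the higher ones, Pdk4 (0.37 ± 0.10) and Dmd (0.24 ± 0.07) were called without them, while Kcnj2 (0.65 ± 0.12, then 0.43) and Ldhb (0.25 ± 0.06, then 0.14) were not. Of the 9 connexins and pannexins, 6 were called lower, and 4 without the deeper libraries.

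The genes whose log2 CPM followed the mean of the 10 standardized members most closely over the 60 libraries, of 14494 compared, were Slc4a4 (Pearson r = 0.75), Ttyh1 (0.73), Fam107a (0.73), Itpr2 (0.70), Phka1 (0.68), Htra1 (0.67), Rftn2 (0.67) and Tmc7 (0.67). Over the 53 libraries without the 7 deeper ones, r of these genes lay between 0.65 (Tmc7) and 0.75 (Fam107a). As deviations from the group means over the 60 libraries it lay between 0.44 (Tmc7) and 0.63 (Slc4a4). For single members the closest genes were Prex2 for Slc1a2 (0.76), Fam107a for Slc1a3 (0.79) and for Gjb6 (0.66), Asrgl1 for Glul (0.83), Plekhg1 for Kcnj10 (0.79), Fgd4 for Aqp4 (0.78), Ddx17 for Gja1 (0.77), Gtf3c1 for Aldh1l1 (0.83), Ndrg2 for Aldoc (0.75) and Rida for S100b (0.67). As deviations from the group means, Prex2 was closest to Slc1a2 (0.78) and Slc1a3 (0.71), Asrgl1 to Glul (0.78), Slc6a9 to Kcnj10 (0.73), Fgd4 to Aqp4 (0.76), Ahcyl1 to Gja1 (0.79), Mcc to Gjb6 (0.61), Eef2 to Aldh1l1 (0.81), Ttyh1 to Aldoc (0.79) and Rida to S100b (0.62). For single members r was not computed without the 7 deeper libraries. The libraries share scaling, dissection and depth, so these values describe likeness over these libraries.

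The members did not all vary together within groups. Of their 45 pairs, 31 had a Pearson r above 0 in the deviations from group means over the 60 libraries, with a median of 0.21. The highest were Glul with Gja1 (0.69), Aldh1l1 with Aldoc (0.65) and Slc1a2 with Slc1a3 (0.61). The lowest were Aqp4 with Aldh1l1 (-0.65), Aqp4 with Aldoc (-0.53) and Slc1a3 with Kcnj10 (-0.37). The deviations of the NLGF week 3 libraries include the 7 deeper ones, in which Aqp4 was high and Aldh1l1 and Aldoc low.

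**Figure D5:**
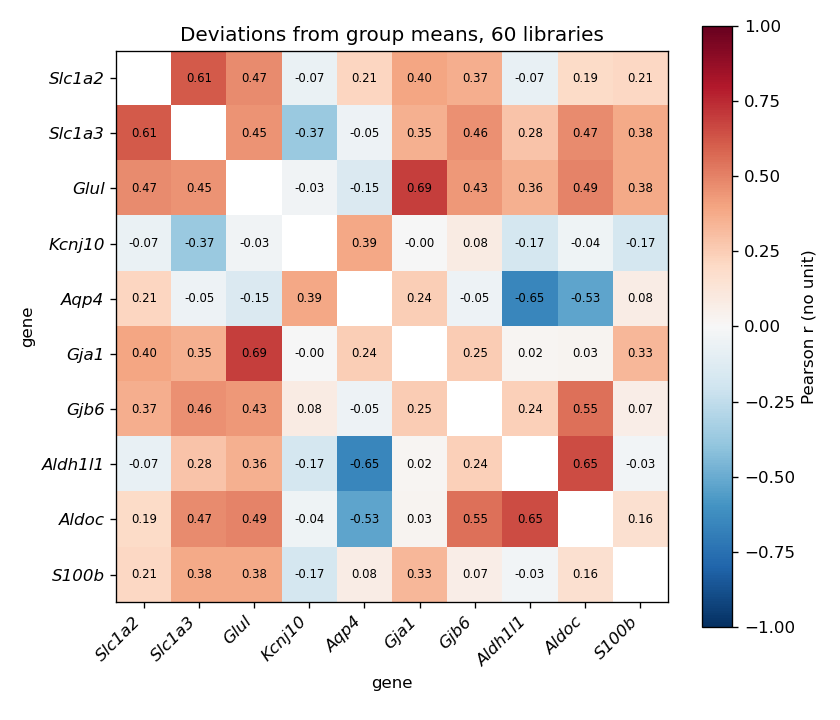
Pearson r (colour and number) between the deviations of 2 members from their group means in log2 CPM over 60 libraries, for each of the 45 pairs. Aqp4 is negative with Aldh1l1 (-0.65) and Aldoc (-0.53), and Glul with Gja1 is the highest (0.69).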

How the data were processed

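Hippocampus RNA of 60 mouse samples was compared. The authors deposited whole-number counts per gene symbol, 1 column per sample, and a table of called genes that, per the file headers, gives the mean normalized count (a signal averaged over samples), the log2 fold change its standard error, and a p-value before and after adjustment. Its adjusted p-values run up to 0.0600. The submitters' processing notes name FastQC, STAR, edgeR, DESeq2 and mm10 without versions. For the read counter, the annotation and strandedness, the setting is not given in the sources used here.

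In R 4.3.3, edgeR 4.0.16 was run on the counts as deposited: filterByExpr (minimum count 10), TMM, robust quasi-likelihood F-test, 2-sided, Benjamini-Hochberg over all genes tested. Genotypes were compared within each week (20 samples, sex as covariate), the change of the genotype effect over all 60 samples (sex within week), and ages within each genotype (30 samples, sex as covariate). The SE is the log2 fold change over the root of its F. The 95% intervals are the estimate with 1.96 SE to each side. Ratios were tested by 100000 permutations, adjusted over 12 tests. Likeness used log2 CPM with a prior count of 2. Alternatives used DESeq2 1.42.0 and limma 3.58.1. The fits were tested on simulated data.

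The members, lists and alternatives were chosen with earlier results of these data known. Named are all 10 members, up to 4 called genes of the 62 in each direction with the smallest p, and the 8 genes most like the members' mean, with the closest gene to each member. A gene that this rule names is not reported here. NLGF female 1 of week 8 carries an age field of 3 weeks but a title of week 8 and was kept at week 8. No 2 libraries of a group held the same values. Totals were 17.8 to 73.4 M counts. Sequences and start sites are those of RefSeq for GRCm38.p6, for 9 of the 10 genes, and exon lengths are from GENCODE vM21.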

Additional observations from a re-analysis of the deposited data

Results flagged for a closer look

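In 5 of 60 sets (10 genes in 6 groups of 10) the highest library stood apart from the others of its group by Dixon's 95% criterion, which chance alone meets in about 1 of 20 groups. NLGF female 1 of week 8 held Slc1a3 at 591 CPM, with the next library at 495. NLGF male 5 of week 24 held Slc1a3 at 614 CPM, with the next at 523. NLGF female 5 of week 8 held Kcnj10 at 262 CPM, with the next at 220.4, and WT female 5 of week 24 held Kcnj10 at 258 CPM, with the next at 214. WT female 1 of week 8 held Aldh1l1 at 93.0 CPM, with the next at 58.1. NLGF female 1 of week 8 is also the library whose age field differs from its title. Without WT female 1 of week 8 the members called in WT from week 3 to week 8 went from 1 to 4 (Slc1a3, Gjb6, Aldh1l1 and Aldoc). No cause of these values was tested.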

How the results depend on the processing

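No call changed direction under any alternative. No member was called between genotypes at week 8 or 24, in any change of the genotype effect, in WT from week 8 to 24 or in either ratio, under any alternative run. The number of called members changed elsewhere. For the genotype at week 3 (1 member) it was 2 with DESeq2 and with voom and quality weights, 3 with all 60 samples in 1 fit, and 0 with females alone, males alone, without the 7 deeper libraries or without NLGF male 2. In WT from week 3 to 8 (1) it was 3 on unadjusted library totals, 0 without the low-count filter and 0 in females alone. From week 3 to 24 (4) it was 1 in females alone and 1 in males alone. In NLGF from week 3 to 8 (4) it was 1 on library totals, 3 without the low-count filter, 0 in females alone, 3 in males alone and 2 without the deeper libraries. From week 8 to 24 (1) it was 0 in each sex alone, and from week 3 to 24 (4) it was 1 in each. Each sex alone leaves 5 samples a group. With 1 library left out the counts ran from 0 to 3 for the genotype at week 3, 0 to 4 for WT week 3 to 8, 3 to 4 for WT week 3 to 24, 1 to 6 for NLGF week 3 to 8, 1 to 1 for NLGF week 8 to 24 and 3 to 6 for NLGF week 3 to 24. The cause of these changes was not tested, beyond fewer samples.

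The labels give a replicate number and do not say whether it pairs samples. Over same-numbered pairs of the 2 genotypes the correlation of deviations passed 0.1 in 4 of 10 pairs at week 3, 4 of 10 at week 8 and 6 of 10 at week 24. Its mean was -0.01, 0.07 and 0.26 at weeks 3, 8 and 24. For other numbers of the same sex the mean was 0.01, -0.01 and -0.07. The source of the week 24 value was not tested. With a replicate block of sex and number, called members were 0 for the genotype at week 3, 0 in WT from week 3 to 8, 3 in WT from week 3 to 24 and 2 in NLGF from week 3 to 8, and genes called at week 3 went from 628 to 165.

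Over all genes, 628 were called at week 3, but 1486 with DESeq2, 1904 with all 60 samples in 1 fit, 3130 with voom and quality weights, 351 without the low-count filter, 190 in females, 6 in males, 257 without NLGF male 2 and 0 without the 7 deeper libraries. At week 24 the 145 were 224 with DESeq2, 44 in females and 37 in males. The genotype effect changed from week 3 to 24 for 204 genes, and for 15 without the deeper libraries and 308 with DESeq2. Of single-gene values, 88 changed sign without a call in either setting, among them Aqp4 and Aldoc between genotypes at week 3 without the deeper libraries. Under the scaling alternatives the median log2 fold change of all genes lay at most 0.05 from 0.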
